A study of Mus musculus with 2 samples.

Results

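Nuclei of the medullary thick ascending limb (TAL) that carried Tmem207 or Gpc5 transcripts were described, a set labelled TAL-γ. A barcode of the medulla library was a member when it held at least 10 counts of Slc12a1, at least 2 counts of Tmem207 and Gpc5 summed, and no count of Tmem52b or Nrxn3. Members also held at most 2 counts of Enox1 and Thsd4, at most 1 of Nos1 and Pappa2, at most 2 of Lrp2 and Cubn, and at most 5000 counts in all. This rule was met by 2830 of the 8121 medulla barcodes (34.8%, exact 95% interval 33.8 to 35.9), out of 13563 barcodes in the series. Comparison nuclei were the 1637 medulla barcodes with neither Tmem207 nor Gpc5 and otherwise the same limits.

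Male B6 mice, labelled WT and aged 12 (no unit given), carried an Slc12a1-driven inducible Cre and a CAG-Sun1-sfGFP nuclear tag, and all received 1 mg tamoxifen daily for 5 days, followed by 10 days of induction. Kidneys were cut into a superficial cortex strip of about 20% of the depth and the remaining medulla portion, and GFP-positive nuclei were sorted and sequenced, with 1 library per region. The tag follows the Slc12a1 promoter, so nuclei outside the TAL were to be removed by the sort. The sources used here do not give the number of mice behind a library.

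The TAL dilutes the tubular fluid by taking up sodium, potassium and chloride through NKCC2, the product of Slc12a1. Its cells differ in their potassium channels and in their claudins, the tight junction proteins that set which ions pass between cells. Kcnj10 encodes Kir4.1, a basolateral potassium channel that works with Kir5.1, the product of Kcnj16. Claudin 10 favours monovalent cations and claudin 16 favours calcium and magnesium, and TAL-γ is the name given to medullary cells in which claudin 10 and Kir4.1 occur together.

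The medulla library held 20947211 counts over its 8121 barcodes, with a median of 2430 per barcode and a range of 955 to 29770, and the cortex library held 16457300 counts over 5442 barcodes. No barcode was shared between the libraries. Members had a median of 2353 counts and 1385 genes, against 2292 counts and 1361 genes in comparison nuclei. Slc12a1 ranged from 11 to 149 counts in members, with a median of 48, and the median in comparison nuclei was 51. Levels are given as counts-per-million (CPM) of a group's summed counts with exact Poisson 95% intervals, and ratios carry exact conditional intervals. Such intervals cover counting error only. With 1 library per region there is no replicate, and no difference between groups was tested.

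The 2 genes that admitted a nucleus did not mark the same nuclei. Both were present in 1387 members (49.0%), Gpc5 alone in 1109 (39.2%, 37.4 to 41.0), and Tmem207 alone in 334 (11.8%). Tmem207 encodes a small single-pass membrane protein, and Gpc5 a glypican, a heparan sulfate proteoglycan held at the cell surface by a lipid anchor. The sum of both ran from 2 to 37 counts, with a median of 6 and quartiles of 3 and 10. The 1721 members with Tmem207 held a mean of 4.90 counts of it per nucleus. Gpc5 averaged 4.62 counts in the members without Tmem207 and 3.90 in those with it. The split by Tmem207 was chosen after the data were seen, and because the rule used both genes, their own levels are a description.

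Tmem207 lies on chromosome 16 (GRCm39, 26322406 to 26345519, minus strand) and Kcnj10 on chromosome 1 (172168765 to 172201652, plus strand), and both are protein coding. The 250 bases before their RefSeq starts are shown because Kcnj10 varied with Tmem207, as did 3 Iroquois genes, which encode homeodomain factors. They come from RefSeq's mouse promoters of build GRCm38.p6, a different build from that of the gene positions, and run 5′ to 3′ on the strand of the gene. Capitals mark the letters ACATGT, a core bound by Iroquois proteins that reads the same on both strands, and TGACCTT, the reverse strand of the estrogen-related receptor site AAGGTCA.
Tmem207 (chr16:26526772-26527021, minus strand): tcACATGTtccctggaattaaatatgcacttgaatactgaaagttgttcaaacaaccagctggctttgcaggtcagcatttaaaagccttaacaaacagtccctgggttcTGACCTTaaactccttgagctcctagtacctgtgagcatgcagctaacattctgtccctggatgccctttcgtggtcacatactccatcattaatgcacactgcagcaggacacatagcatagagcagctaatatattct
Kcnj10 (chr1:172340960-172341209, plus strand): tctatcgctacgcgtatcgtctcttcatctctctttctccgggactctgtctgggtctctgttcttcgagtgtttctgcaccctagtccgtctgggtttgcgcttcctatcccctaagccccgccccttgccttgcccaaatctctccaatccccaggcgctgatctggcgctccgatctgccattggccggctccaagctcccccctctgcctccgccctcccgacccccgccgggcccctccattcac
The Tmem207 promoter held ACATGT 248 bases and TGACCTT 140 bases before its start, with a GC content of 43.6%. The Kcnj10 promoter held neither, nor the HNF1 site GTTAAT, on either strand, with a GC content of 62.0%. Over all 32851 mouse promoters of the same length, 4.58% held ACATGT, 4.08% held AAGGTCA and 6.43% held GTTAAT. Of the promoters of the 15 genes highest in members against comparison nuclei, 1 held ACATGT (D630024D03Rik) and none held either of the others. A match describes the letters and shows no binding.

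Kcnj10 varied with Tmem207 far more than with Gpc5. Among all nuclei under the rule's other limits, Kcnj10 stood at 9.43 CPM (7.34 to 11.9) in the 3200 nuclei without Tmem207. It stood at 132 CPM (105 to 164) in the 282 with 1 Tmem207 count, 167 CPM (148 to 189) in the 692 with 2 to 4, and 168 CPM (151 to 187) in the 834 with 5 or more. A single Tmem207 count therefore marked most of the difference. Where Tmem207 was at 0, Kcnj10 was at 4.85 CPM (2.87 to 7.67) with no Gpc5 count, 14.7 CPM (8.20 to 24.2) with 1, 14.3 CPM (8.98 to 21.7) with 2 to 4 and 13.4 CPM (7.33 to 22.5) with 5 or more. The intervals of the 3 groups with Gpc5 overlapped, and all lay under every interval of the nuclei with Tmem207.

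Lrmda and Itpr2 had the same form, and Cacnb2 the opposite one. Lrmda, a gene linked to melanocyte differentiation, was at 51.8 CPM without Tmem207 and at 511, 683 and 680 CPM with 1, 2 to 4 and 5 or more counts. Itpr2, which encodes an endoplasmic reticulum calcium release channel gated by inositol trisphosphate, was at 25.7, 282, 283 and 308 CPM over the same groups. Cacnb2, a beta subunit of voltage-gated calcium channels, was at 607, 272, 117 and 90.4 CPM. Along Gpc5 at 0 Tmem207 the spans were narrower, with Lrmda between 28.0 and 84.6 CPM, Itpr2 between 19.5 and 46.9 CPM and Cacnb2 between 531 and 659 CPM.

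**Figure D1:**
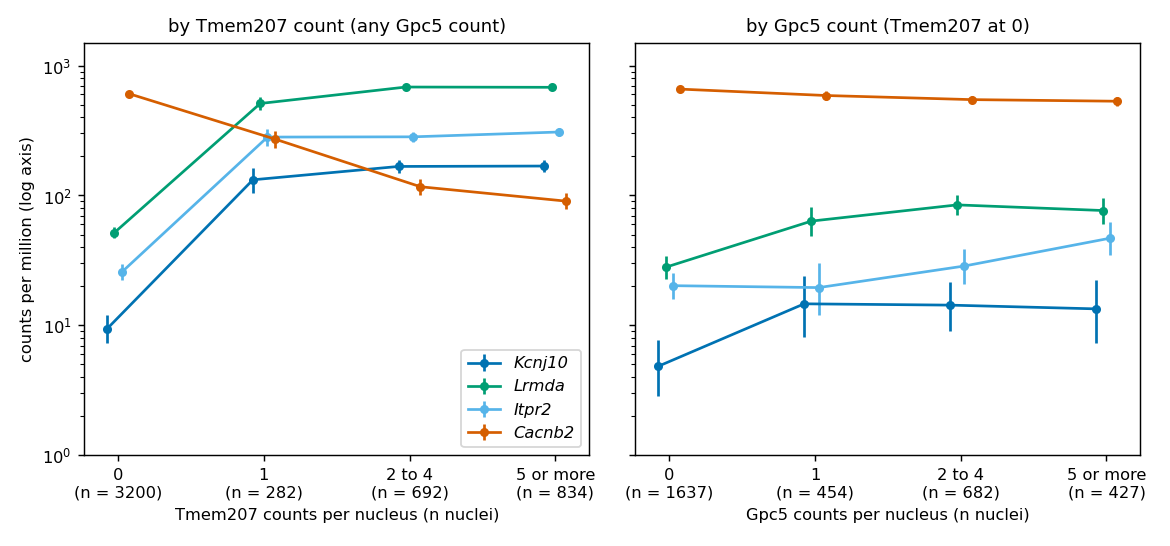
Counts-per-million (log axis) of Kcnj10, Lrmda, Itpr2 and Cacnb2 in medulla nuclei under the rule's limits, grouped by their Tmem207 counts (left, any Gpc5 count) and by their Gpc5 counts where Tmem207 was 0 (right). Points are levels of summed counts, bars are exact Poisson 95% intervals, and n is the number of nuclei; on the left Kcnj10 goes from 9.43 to 168 CPM and Cacnb2 from 607 to 90.4 CPM, and on the right Kcnj10 stays at or below 14.7 CPM.

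Rgs7, a regulator of G protein signalling, varied with both genes. It was at 94.1 CPM (87.2 to 101) without Tmem207, 84.3 CPM (63.1 to 110) with 1 count, 176 CPM (156 to 198) with 2 to 4 and 201 CPM (183 to 221) with 5 or more. Along Gpc5 at 0 Tmem207 it was at 64.9, 110, 121 and 142 CPM. In members that held Tmem207 alone it was at 119 CPM, between the comparison nuclei and the members with both genes.

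The lower bound of the rule cut through a gradient of composition. Nuclei with a sum of 1, just outside, numbered 541, and nuclei with a sum of 2, just inside, numbered 393. Tmem207 was present in 16.1% of the first, 25.7% of the second, 39.1% of those with 3 to 4 and 76.2% of those with 5 or more. Kcnj10 stood at 34.6 CPM just outside and 63.8 CPM just inside, and reached 127 CPM at 5 or more. These values describe the rule and carry no test.

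The Kcnj10 of the label was found in the members with Tmem207 as a group and was low in those without it. Kcnj10 was at 164 CPM (152 to 177, 678 counts) in members with Tmem207, at 13.9 CPM (9.77 to 19.3, 36 counts) in members without it, and at 4.85 CPM (18 counts) in comparison nuclei. Cldn10 was at 202, 239 and 259 CPM in the same order, so Cldn10 did not separate them. The 1109 members without Tmem207 are therefore named below by the rule alone, and exceptions among the deposited clusters are given further on. At least 1 Kcnj10 count was present in 28.8% (26.7 to 31.0) of members with Tmem207, 2.71% of members without it, and 1.10% of comparison nuclei. Thinned to 1000 counts per nucleus, which left out 4 members and 11 comparison nuclei, the shares were 14.3%, 1.44% and 0.738%.

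Background was gauged in 77 medulla barcodes of proximal tubule type, which also hold transcripts of their own. They had the proximal tubule genes Lrp2 and Cubn at 10 or more and Slc12a1 at 2 or less. Their median was 4885 counts. Kcnj10 was found in 0 of these 77, which allows a share of up to 3.90% at the floor of 3 counts, and in sum had 0 counts of 385318, which allows 7.79 CPM at the same floor. Tmem207 was found in 1 and Gpc5 in 5 of them. The share of members without Tmem207 that held Kcnj10, 2.71% at a median of 2308 counts, lay under the first limit, while their level of 13.9 CPM (9.77 to 19.3) lay above the second. Whether the few Kcnj10 counts of these members were free RNA was not tested. Lrmda and Cldn10 do not serve for this check, since they were at 2198 and 433 CPM in the proximal tubule barcodes and found in 98.7% and 79.2% of them. The proximal tubule marker list summed to 76.6 CPM in members with Tmem207, 91.8 CPM in members without it and 86.2 CPM in comparison nuclei. Its part in the Lrmda difference was not tested. Medulla barcodes of 10 to 100 counts outside the filtered set served as a free RNA profile. That profile held Tmem207 at 564 CPM, Cldn16 at 59.4 CPM and Il1rap at 35.9 CPM. The part of free RNA in the differences between groups was not tested.

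Of 8860 genes at 10 CPM or more in the higher group, 34 were at least 2-fold higher in members than in comparison nuclei (0.384%) and 56 at least 2-fold lower (0.632%), with Tmem207, Gpc5 and the other genes of the rule left out. The median log2 ratio of all genes was 0.00. The 15 highest with at least 50 CPM were led by Kcnj10 at 21.9-fold (13.8 to 37.2), Lrmda at 15.7-fold (12.9 to 19.3), Itpr2 at 9.69-fold (7.67 to 12.4) and Il1rap at 8.91-fold (5.74 to 14.6). Il1rap encodes the accessory chain of the interleukin-1 receptor. Next were Rbfox1, a neuronal and muscle splicing factor, at 4.66-fold, Cadps2, which takes part in dense-core vesicle release, at 4.00-fold, and Rgs7 at 2.47-fold. D630024D03Rik, Sned1, Zfp385b, Slit3, Ano4, Fgd3, Tinag and Adgrg3 lay between 1.82-fold and 2.41-fold. Slit3 is a secreted guidance ligand of Robo receptors and Tinag a basement membrane protein first found in tubulointerstitial nephritis.

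The 15 lowest lay between 0.232 and 0.489 of the comparison level. Tmem178, which encodes a membrane protein of the endoplasmic reticulum, was lowest at 13.2 CPM in members against 57.1 CPM. Cacnb2 stood at 278 CPM (266 to 291) against 659 CPM (633 to 685). Hes1, a transcriptional repressor of the Notch pathway, stood at 126 CPM against 273 CPM, and Ryr2, an intracellular calcium release channel, at 92.4 CPM against 197 CPM. Others were 9530026P05Rik, Cdh6, Samd5, Gm40999, Tmem117, Cadm2, Rab31, Klk1, Irx1 and Flvcr1.

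Members with Tmem207 carried most of both sets. Of the 15 highest genes, 13 were at least 2-fold above comparison nuclei in members with Tmem207 and 4 in members without it, where the background was 0.551% and 0.436% of all genes. The median log2 ratio of the 15 was 1.53 and 0.83. Of the 15 lowest genes, 14 were at least 2-fold below in members with Tmem207 and 4 in members without it, against 1.08% and 0.671% of all genes. The 15 were picked on members of both kinds, so the counts describe how the difference was shared out. Set directly against each other, members with Tmem207 had 63 genes at least 2-fold above members without it (0.705% of 8934) and 55 at least 2-fold below (0.616%). Of the 8 TAL-β markers of the study 4 were among the first and of its 8 TAL-α markers 3 among the second.

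A first group of genes was high where Tmem207 was present and also high in TAL-β-type nuclei. Of the 15 highest genes, 9 were at least 2-fold above comparison nuclei in TAL-β-type nuclei too, where 4.61% of all genes were, and 1, Rgs7, was at least 2-fold below, where 2.50% were. The latter were 752 medulla barcodes with at least 2 counts of Tmem52b and Nrxn3, the 2 genes that members had to lack, with the same bounds on Slc12a1, Nos1, Pappa2, Lrp2, Cubn and total counts. Their median was 2700 counts, and Tmem207 was present in 59.7% of them. The ratio of members with Tmem207 to TAL-β-type nuclei was 1.04 (0.908 to 1.19) for Kcnj10, 1.20 (0.977 to 1.49) for Il1rap, 1.14 (1.08 to 1.20) for Rbfox1 and 1.03 (0.725 to 1.49) for Irx3. It was 0.754 for Lrmda, 0.611 for Itpr2 and 0.342 for Cadps2, where members stood between TAL-β-type and comparison nuclei. Kcnj10 was also at 165 CPM in the 1609 cortical barcodes of the same TAL-β-type gate and at 3.56 CPM in 1521 cortical TAL-α-type barcodes, which had Slc12a1, neither Tmem207 nor Gpc5 and neither β gene.

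Members without Tmem207 lay far below those with it for these genes, and in part above comparison nuclei. Rbfox1 was at 1210 CPM in members with Tmem207, 127 CPM in members without it and 171 CPM in comparison nuclei. Il1rap was at 75.6, 10.1 and 5.66 CPM, and Cadps2 at 123, 24.8 and 21.3 CPM. Lrmda at 664, 81.4 and 28.0 CPM and Itpr2 at 295, 36.0 and 20.2 CPM were higher in members without Tmem207 than in comparison nuclei, by 2.90-fold (2.28 to 3.71) and 1.78-fold (1.30 to 2.45). The same ratio was 2.88-fold (1.59 to 5.38) for Kcnj10 and 4.31-fold (1.31 to 18.4) for Irx3, the latter on 12 and 4 counts.

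**Figure D2:**
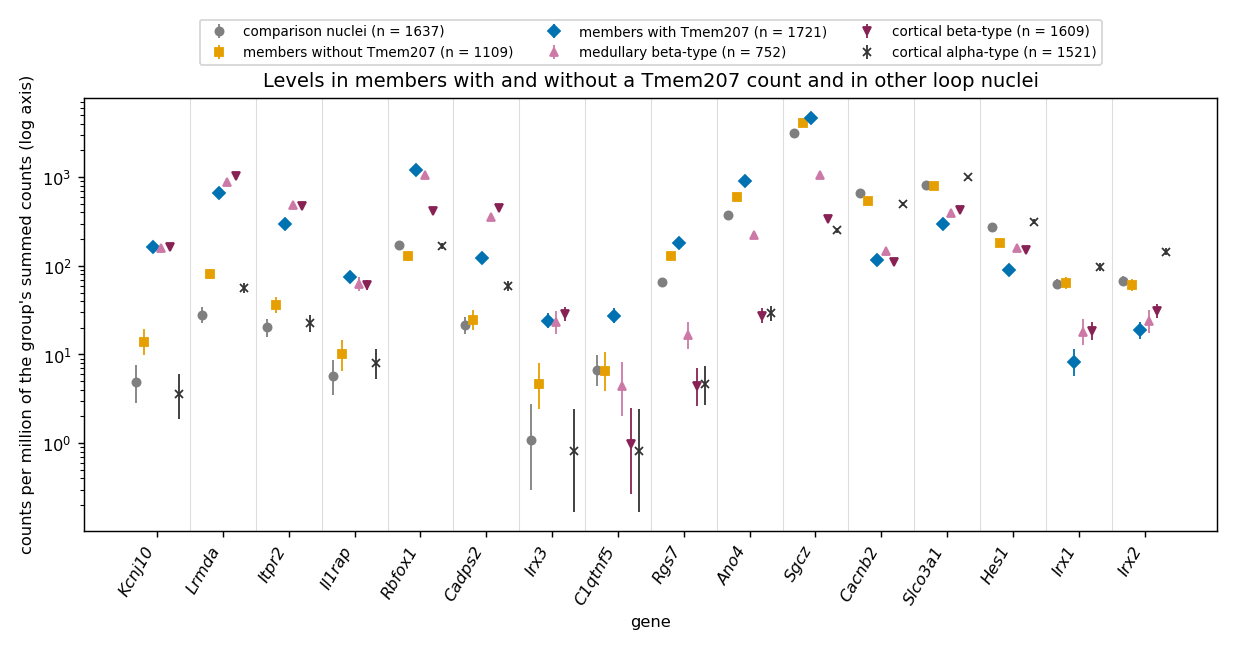
Counts-per-million of a group's summed counts (log axis) for 16 genes in comparison nuclei, members without and with a Tmem207 count, medullary and cortical TAL-β-type nuclei and cortical TAL-α-type nuclei. Bars are exact Poisson 95% intervals and n is the number of nuclei; for Kcnj10 the members with Tmem207 (164 CPM) sit beside the TAL-β-type nuclei (158 and 165 CPM), whereas for Rgs7, Ano4 and Sgcz both kinds of members lie above every other group.

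A second group was high in the summed members of both kinds and low in TAL-β-type nuclei. Rgs7 stood at 180 CPM (167 to 193) with Tmem207, 129 CPM (116 to 144) without it, 64.9 CPM in comparison nuclei and 16.6 CPM in TAL-β-type nuclei. Ano4, a member of the anoctamin family of calcium-dependent membrane proteins, was at 906, 597, 370 and 222 CPM in that order. Sgcz, the zeta-sarcoglycan of the dystrophin complex, was at 4626, 4038, 3125 and 1050 CPM. C1qtnf5, a secreted C1q family protein, was instead at 27.5 CPM (22.7 to 33.1) in members with Tmem207, against 6.59 CPM in those without it, 6.74 CPM in comparison nuclei and 4.38 CPM in TAL-β-type nuclei. These 4 and Kcnj10 were given as markers of the label, so their direction is not independent evidence.

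Slit3 and Adgrg3 were higher without Tmem207 than with it. Slit3 stood at 188 CPM (172 to 205) without and 120 CPM (110 to 131) with Tmem207, and at 68.2 CPM in comparison nuclei. Adgrg3, an adhesion G protein-coupled receptor, stood at 110 CPM (97.6 to 124) without and 83.1 CPM (74.5 to 92.3) with Tmem207, and at 51.2 CPM in comparison nuclei. Pik3c2g, a class II phosphoinositide 3-kinase, was at 229 CPM without, 71.2 CPM with Tmem207 and 177 CPM in comparison nuclei.

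Members with Tmem207 had low levels of genes that mark TAL-α. Of the 8 TAL-α markers taken from the study, 3 were at least 2-fold lower in members than in comparison nuclei, where 0.632% of all genes were. The median log2 ratio of the 8 was −0.66. Of the 3, Hes1 and Ryr2 were no longer 2-fold lower with Enox1 and Thsd4 at 0 or with a sum of at least 1. With Gpc5 as the only gate gene none of the 3, Cacnb2 included, was. In members with Tmem207, 4 of the 8 were at least 2-fold lower, with a median of −1.13, and in members without it none was, with a median of −0.22. Over all genes the shares were 1.08% and 0.671%. Cacnb2 was at 115 CPM (105 to 126) with Tmem207 and 541 CPM (513 to 570) without it. Slco3a1, an organic anion transporter, was at 294, 785 and 807 CPM with Tmem207, without it and in comparison nuclei. Hes1 was at 90.3, 182 and 273 CPM in this order. Ptger3, the receptor through which prostaglandin E2 restrains salt uptake, differed less, at 1411, 1958 and 2228 CPM, and was at 552 CPM in TAL-β-type nuclei. For Slco3a1, members with Tmem207 were at 0.741 (0.678 to 0.811) of the TAL-β-type level. The study reports Ptger3 and Slco3a1 as higher in both TAL-α and TAL-γ cells. The study chose these markers on the same libraries.

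The Iroquois genes split along the same line. Irx1 was at 8.21 CPM (5.69 to 11.5) in members with Tmem207, 63.9 CPM (54.6 to 74.5) without it and 62.0 CPM (54.2 to 70.5) in comparison nuclei. Irx2, its neighbour on chromosome 13, was at 18.8, 61.2 and 67.4 CPM. Irx3, from the other Iroquois cluster on chromosome 8, went the other way, at 24.1 CPM (19.6 to 29.4, 100 counts), 4.65 CPM (12 counts) and 1.08 CPM (4 counts). TAL-β-type nuclei were at 18.0, 23.9 and 23.4 CPM for Irx1, Irx2 and Irx3, on the side of the members with Tmem207. Of the 21 transcription factors tested, Irx3 was the only one at least 2-fold higher and Irx1 the only one at least 2-fold lower in members, against 0.384% and 0.632% of all genes. Irx1 was at 0.478 of the comparison level. It was no longer 2-fold lower with a sum of at least 1 or with Gpc5 as the only gate gene. Nor was it 2-fold lower in the members of cluster 2, the deposited cluster with the most members. The list's median log2 ratio was 0.00, as over all genes. Prox1, a homeobox factor best known from lymphatic endothelium, was at 258, 228 and 170 CPM. Its level in TAL-β-type nuclei was 87.6 CPM.

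Jag1 and Zfp503 were outside the rule for named genes, at under 50 CPM, and were picked after their values were seen. Jag1, a ligand of Notch receptors, was at 75.6 CPM (67.4 to 84.4) in members with Tmem207, 8.91 CPM (5.65 to 13.4) without it and 2.16 CPM (8 counts) in comparison nuclei. It was at 73.0 CPM in TAL-β-type nuclei. Zfp503, a zinc finger repressor, was at 61.1, 8.52 and 2.69 CPM in the first 3 groups and at 90.6 CPM in the last.

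Among 10 potassium channel genes, 7 reached 10 CPM and Kcnj10 alone differed 2-fold between members and comparison nuclei, where 0.384% of all genes were higher and 0.632% lower. The list's median log2 ratio was −0.05. Kcnj16 was at 862 CPM in members and 822 CPM in comparison nuclei, a ratio of 1.05 (1.00 to 1.09), so the partner subunit was close to level where Kcnj10 was not. Kcnj1, which encodes the apical channel ROMK, was at 624 CPM with Tmem207 and 753 CPM without it, a ratio of 0.828 (0.780 to 0.878). Kcnma1, the pore of the large-conductance calcium-activated channel, was at 76.6 CPM with Tmem207, 150 CPM without it and 176 CPM in comparison nuclei. Kcnt1, a sodium-activated channel, was at 202, 186 and 185 CPM in those groups and at 53.1 CPM in TAL-β-type nuclei. Kcnq1 and Kcnk1 lay within 2-fold, while Kcnj15, Kcnk5 and Kcnd3 were each under 6 CPM in members.

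In the summed groups, Cldn16 varied with Tmem207 more than Cldn10 did. None of the 16 tight junction genes tested differed 2-fold between members and comparison nuclei, where 0.384% of all genes were higher and 0.632% lower. In members with Tmem207, 1 of 17 tested, Cldn16, was at least 2-fold higher, against 0.551% of all genes. Cldn16 was at 58.4 CPM (51.3 to 66.3) with Tmem207, 10.8 CPM (7.21 to 15.7) without it and 24.5 CPM (19.7 to 30.1) in comparison nuclei, against 240 CPM in TAL-β-type nuclei. Members without Tmem207 thus had the lowest Cldn16 of these groups. Cldn19, the partner of claudin 16, was at 92.5, 84.5, 102 and 163 CPM in this order. Cldn16 differed between the deposited clusters of members, at 170 CPM in cluster 7 (125 of 270 counts) and 228 CPM in cluster 6. In clusters 2 and 5 it was at 20.8 and 22.4 CPM, no higher than in comparison nuclei. The scaffold genes Magi2 and Magi3 were at 2280 and 817 CPM in members, against 649 and 390 CPM in TAL-β-type nuclei. Tjp1, Ocln, Cgn, Patj and Pard3 all lay within 2-fold of both other groups.

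Of 15 calcium and magnesium genes tested, Itpr2 was at least 2-fold higher in members and none at least 2-fold lower, against 0.384% and 0.632% of all genes, with a list median of −0.04 on the log2 scale. Within the members, Casr, the calcium-sensing receptor, was at 477 CPM (456 to 499) with Tmem207 and 209 CPM (192 to 228) without it, around a comparison level of 352 CPM. Egf, the precursor of epidermal growth factor, was at 4660 CPM with Tmem207, 3211 CPM without it and 5141 CPM in comparison nuclei. Members without Tmem207 were the lowest for both. Kl, which encodes the FGF23 co-receptor Klotho, was at 63.7 CPM in members and 116 CPM in comparison nuclei. It was at 59.9 CPM with and 69.7 CPM without Tmem207.

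Of 16 hormone and growth factor signalling genes tested, Rgs7 was at least 2-fold higher in members and Adrb1 at least 2-fold lower, against 0.384% and 0.632% of all genes, with a list median of −0.12 on the log2 scale. Adrb1, the beta-1 adrenergic receptor, was at 8.78 CPM in members and 27.2 CPM in comparison nuclei. It was at 2.90 CPM (12 counts) in members with Tmem207 and 18.2 CPM (47 counts) in those without it. No gene of the 6 osmolyte or 19 fuel oxidation genes tested differed 2-fold. Slc5a3, the inositol transporter that loads cells with osmolyte, was at 3703 and 3641 CPM, and Ppargc1a, a coactivator of mitochondrial genes, at 2238 and 1952 CPM.

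Genes that the study used to score cortical origin were low in members of both kinds. Of 11 such genes, 8 were at least 2-fold lower in members than in comparison nuclei, with a median log2 ratio of −1.12. Over all genes 0.632% were. The counts were 8 with Tmem207 and 6 without it, where 1.08% and 0.671% of all genes were at least 2-fold lower. The study chose these genes on the same libraries. Sfrp1, an inhibitor of Wnt ligands, was at 4.46 CPM in members and 14.6 CPM in comparison nuclei, and Pde10a, a cyclic nucleotide phosphodiesterase, at 11.5 and 27.5 CPM. Cdh6, a kidney cadherin, was at 42.0 CPM with Tmem207, 21.3 CPM without it and 84.9 CPM in comparison nuclei. None of the 13 medulla score genes differed 2-fold, where 0.384% of all genes were higher and 0.632% lower. The median log2 ratio of these 13 was 0.09. The rule limited 2 cortex-side genes, Enox1 and Thsd4, equally in both groups.

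Against TAL-β-type nuclei, 216 of 9191 genes were at least 2-fold higher in members (2.35%) and 478 at least 2-fold lower (5.20%). This contrast is set in part by the rule, since members lacked Tmem52b and Nrxn3 and were limited in Enox1 and Thsd4. For members with Tmem207 the numbers were 216 higher (2.35%) and 486 lower (5.29%). Over all members the highest was Lama1, a laminin chain of the basement membrane, at 98.5 CPM (91.1 to 106) against 3.90 CPM (8 counts), 25.3-fold (12.8 to 58.8). Lama1 was at 98.5 CPM with and 98.4 CPM without Tmem207 and at 99.2 CPM in comparison nuclei, so it separated all of these medullary nuclei from the TAL-β-type. Scel, Spag5, Pik3c2g and Ranbp3l followed Rgs7 at 7.24, 7.13, 7.12 and 6.00-fold. Filip1l, Gm41496, Plod2 and Gm14532 lay between 4.31-fold and 4.75-fold.

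The lowest genes against the TAL-β-type were Sfrp1 at 4.46 against 400 CPM and Pde10a at 11.5 against 503 CPM. Car15, a membrane carbonic anhydrase, was at 12.8 against 534 CPM. Col5a2, a fibrillar collagen chain, was at 23.5 against 742 CPM, and Pth1r, the receptor of parathyroid hormone, at 15.5 against 378 CPM. Slc12a3, the cotransporter that defines the distal convoluted tubule, was at 2.38 against 60.9 CPM, and Tshr, Sulf2, Shd and Ier3 completed the 10 lowest. Lists of other cell types moved with this contrast. The distal convoluted tubule list summed to 27.2 against 140 CPM, with all 3 genes tested at least 2-fold lower in members, led in the TAL-β-type by Slc12a3. The macula densa list summed to 21.7 against 68.2 CPM, with both genes tested lower, Robo2 and Unc5d, and Ptgs2 at 0 counts in both groups. The immune list went the other way, at 23.5 against 15.6 CPM, and its 1 gene tested, Csf1r, was at 17.4 against 6.82 CPM. Their part in the contrast was not tested. All 8 TAL-β markers of the study, all 11 cortex score genes and 10 of the 16 calcium and magnesium genes tested were at least 2-fold lower in members, where 5.20% of all genes were. Wnk1, a kinase that governs chloride cotransport, was at 356 against 2295 CPM. In the other direction, with 2.35% of all genes, stood 11 of 13 medulla score genes, Cldn10 at 216 against 56.5 CPM, Ptger3 at 1621 against 552 CPM and the transcription factors Pax2, Prox1, Tcf7l1 and Tfdp2.

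**Figure D3:**
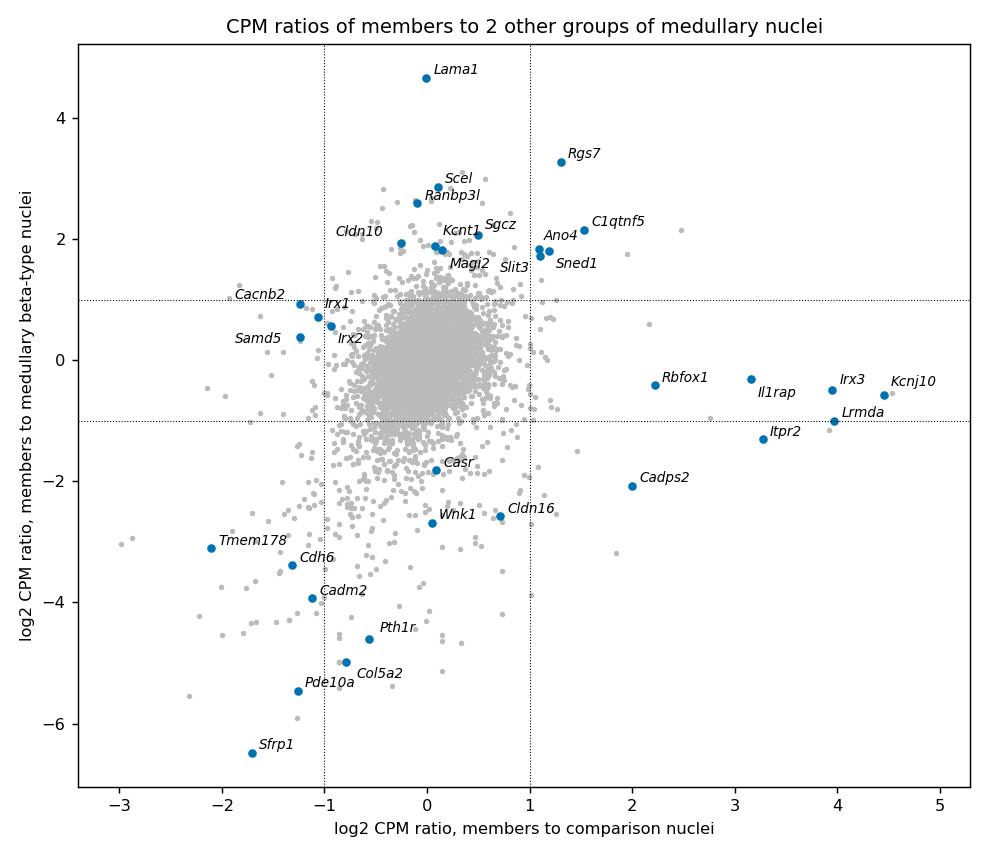
Log2 ratio of CPM in members to comparison nuclei (horizontal axis) against the log2 ratio to medullary TAL-β-type nuclei (vertical axis), one point per gene, with dotted lines at 2-fold and selected genes named. Kcnj10, Irx3, Lrmda, Itpr2 and Il1rap lie far to the right and at or below 0 on the vertical axis, while Rgs7, C1qtnf5 and Ano4 lie above 1 on both axes and Lama1 lies near 0 on the horizontal axis at 25.3-fold on the vertical one.

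Detection of the first group in single nuclei went with the kind of member. Of Kcnj10, Lrmda, Itpr2, Rbfox1, Il1rap and Cadps2, at least 3 were detected in 36.4% of members with Tmem207, 2.25% of members without it, 1.22% of comparison nuclei and 58.8% of TAL-β-type nuclei. None of the 6 was detected in 9.47%, 74.4%, 79.0% and 12.0% of these groups. These 6 led the ranking of members against comparison nuclei, made on the same nuclei. Their more frequent detection in members than in comparison nuclei followed from that choice and is a description. Kcnj10 and Cacnb2 were found together in 2.08% of all members, where the product of their shares was 5.13%. Within members with Tmem207 the values were 3.02% and 3.80%, so most of that gap lay between the kinds of members. Kcnj10 and Lrmda were together in 15.5% of members with Tmem207 (product 15.4%) and Kcnj10 and Itpr2 in 14.1% (12.9%). Lrmda and Itpr2 were together in 25.7% (24.0%), so within that group the pairs met about as often as their shares give. In members without Tmem207 the same pairs were together in 1.35% (product 0.232%), 0.902% (0.173%) and 2.62% (0.548%), on 15, 10 and 29 nuclei. There they met more often than their shares give. Kcnj10 and Cldn10 were found together in 9.94% of members with Tmem207, near the product of 10.2%.

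The genes with the largest variance among members, beyond that expected of their means, were Egf at 8.84 and Rbfox1 at 7.54 times the Poisson value. The median over 4239 genes was 1.14 and the 95th percentile 1.57. Ranbp3l, Sgcz, Magi2, Abca13, Timp3, 2210408F21Rik, Lrmda, Slit2, Slit3 and Kctd8 followed, from 5.42 down to 2.86. Rbfox1 and Lrmda were split by Tmem207 as above. Ranbp3l was not, at 3845 CPM with Tmem207 and 3986 CPM without it.

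The clusters deposited with the counts placed members of either kind apart in part. Members lay in 11 of the 13 medulla clusters, and 1736 of them (61.3%) in clusters 2 and 5. Cluster 5 held 848 members, 812 of them with Tmem207, and cluster 7 held 284, 266 of them with Tmem207. Clusters 3 and 4 held 213 and 350 members, of which 19 and 27 had Tmem207. Members without Tmem207 lay in clusters 3 and 4 in 46.6% of cases and comparison nuclei in 63.5%, against 2.67% of members with Tmem207.

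Cluster 2 held both kinds, 451 members with and 437 without Tmem207, and differed between them in the same directions. Kcnj10 was at 143 CPM (121 to 167) with and 12.6 CPM (6.72 to 21.6) without Tmem207 in that cluster. Lrmda was at 723 and 105 CPM, Cacnb2 at 101 and 461 CPM and Irx1 at 10.1 and 55.4 CPM. Rbfox1 at 583 and 97.1 CPM and Casr at 321 and 207 CPM were less far apart than over all members. In clusters 5 and 7, by contrast, the few members without a Tmem207 count had Kcnj10 at 119 CPM (54.2 to 225, 36 nuclei) and 247 CPM (123 to 441, 18 nuclei), with intervals that overlapped those of the members with Tmem207. Their Lrmda, at 316 and 493 CPM, was below the 648 and 718 CPM of the members with Tmem207 there.

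Clusters also differed in genes that did not follow Kcnj10. Cluster 4 members had Rgs7 at 208 CPM (178 to 242) and 0 counts of Kcnj10 in 820771, which allows up to 3.66 CPM at the floor of 3 counts. Cluster 7 members had Kcnj10 at 232 CPM (199 to 270) and Rgs7 at 35.3 CPM (23.1 to 51.7), with Cldn16 at 170 CPM, the highest of the 6 clusters with at least 150 members. Cluster 5 members had both Kcnj10 at 160 CPM and Rgs7 at 215 CPM, with C1qtnf5 at 40.7 CPM and Sgcz at 5552 CPM. Cluster 2 members with Tmem207 likewise had both, Kcnj10 at 143 CPM and Rgs7 at 226 CPM. Cluster 6, which held 509 of the 752 TAL-β-type nuclei, had 45 members, 43 of them with Tmem207. Their Cldn16 was at 228 CPM (148 to 337), Cldn10 at 36.5 CPM (9.95 to 93.5) and Rgs7 at 0 counts. Cluster 3 members had Rgs7 at 39.9 CPM (22 counts), Kcnj10 at 9.06 CPM (2.94 to 21.1) and Cldn10 at 261 CPM. Members of clusters 3, 4, 6 and 7 thus went against 1 or more of the given markers, with Kcnj10 at 0 counts in cluster 4. Cluster 8 members had a median of 1348 counts, against 2304.5 or more in the other 5. The clusters were made by the authors from the same counts, so these values are descriptions.

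**Figure D4:**
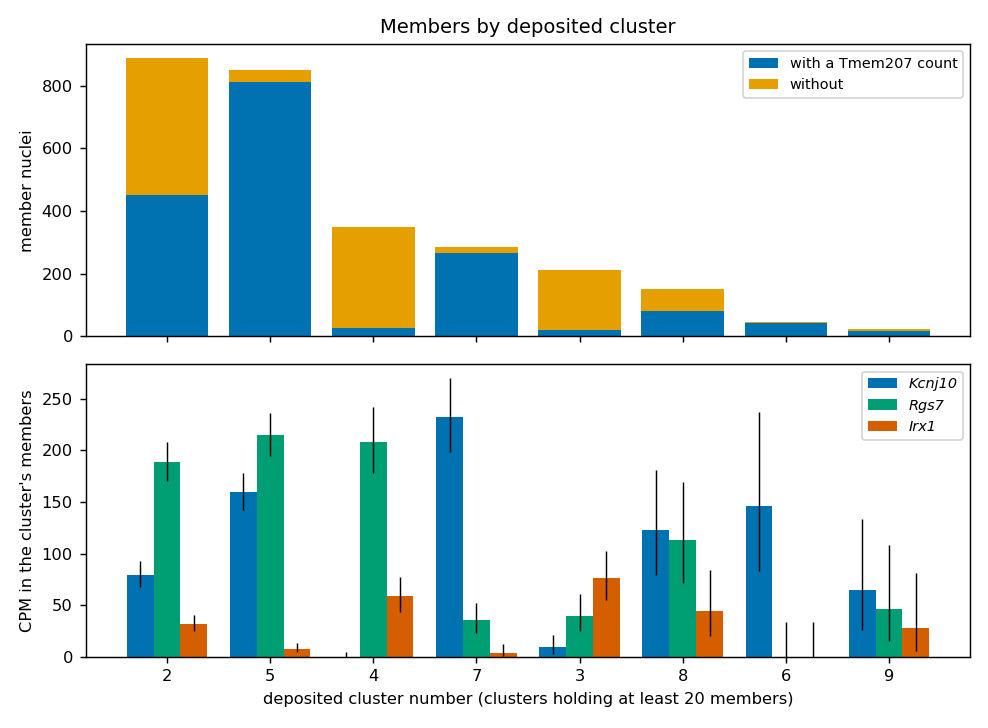
Members in each deposited medulla cluster that holds at least 20 of them, split by the presence of a Tmem207 count (top, number of nuclei), and the CPM of Kcnj10, Rgs7 and Irx1 in each cluster's members with exact Poisson 95% intervals (bottom). Cluster 4 shows Rgs7 at 208 CPM with no Kcnj10, cluster 7 shows Kcnj10 at 232 CPM with Rgs7 at 35.3 CPM, and cluster 5 shows both.

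Markers of other cell types were low in members. The proximal tubule list summed to 82.4 CPM over 9 genes, led by Acsm2 at 22.0 CPM, against 86.2 CPM in comparison nuclei. The distal convoluted tubule list summed to 27.2 CPM with Pvalb at 0, the intercalated cell list to 4.61 CPM with Foxi1 at 0, the macula densa list to 21.7 CPM with Ptgs2 at 0, and the podocyte list to 3.12 CPM. Principal cell, thin limb, stromal, immune and proliferation lists summed to 15.3, 17.3, 5.36, 23.5 and 10.6 CPM. The endothelial list was at 36.2 CPM in members, led by Flt1 at 12.9 CPM, and 22.9 CPM in comparison nuclei. Within it Emcn, a sialomucin of endothelium, was at 8.78 CPM (59 counts) in members and 1.08 CPM (4 counts) in comparison nuclei. It was at 9.90 CPM with and 6.97 CPM without Tmem207, and its part in the other differences was not tested.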

How the data were processed

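The authors demultiplexed the reads with bcl2fastq, counted them per gene and barcode against GRCm39 with PIPseeker, and deposited raw and filtered tables of transcript counts with graph clusters for the cortex and the medulla. These deposited counts precede the doublet removal, free RNA correction and normalisation that the authors ran in Seurat 4.4.0, per the submitters' processing notes and the study's methods, and their annotated nuclei were not used here. The deposited UMAP coordinates, a score with no unit, were not used.

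Counts of the filtered barcodes were summed over each group and scaled to CPM, and the 11 genes that the rule used were not ranked or counted in lists. Genes with at least 10 CPM in the higher group were compared, a gene counted as different past 2-fold, and a group with 0 counts was set to 3 counts. Poisson, Clopper-Pearson and conditional binomial 95% intervals cover counting error only. The ratio was tested on simulated data. No doublet caller was applied before the comparisons, and the upper bound of 5000 counts is part of the rule. Python 3.11.15, numpy 2.4.6, scipy 1.17.1, pandas 2.3.3, scanpy 1.11.5 and matplotlib 3.10.9 were used.

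Named genes were those of the given markers, potassium channel and tight junction lists, the 4 with the largest change in each other list, and the 12 most variable among members. To them were added, at 50 CPM or more, the 15 highest and 15 lowest against comparison nuclei and the 10 highest and 10 lowest against TAL-β-type nuclei. The members and the 25 gene lists were chosen with earlier results of these data known. Alternatives changed the bounds of the rule and the gate gene, the limits on total counts and the lowest CPM. Others removed low-quality nuclei and likely doublets, thinned nuclei to 1000 counts, weighted nuclei equally or used size factors. Free RNA profiled in 67088 barcodes of 10 to 100 counts was subtracted in another, and a further one kept only the members of 1 deposited cluster. Gene positions came from GENCODE (GRCm39), which held 298 of the 299 genes looked up. Values of a few listed genes are not reported here.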

Additional observations from a re-analysis of the deposited data

Results flagged for a closer look

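The cortex library, which the comparisons above do not use for members, held 36 barcodes of 5442 (0.662%, exact 95% interval 0.464 to 0.915) that met the whole rule. Tmem207 was present in 28 of them, with Kcnj10 at 297 CPM (179 to 463, 19 counts) and Lrmda at 1296 CPM, and the other 8 had 0 counts of Kcnj10 in 17817, which allows up to 168 CPM at the floor of 3 counts. All 36 together had 0 counts of Rgs7, which allows up to 36.7 CPM, Sgcz at 1930 CPM and Cldn10 at 73.3 CPM, where medullary members had 4400 and 216 CPM. The difference between the regions was not tested, since region and library cannot be told apart.

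The medulla library held 87 barcodes with 1 Tmem207 count and no Gpc5 that failed the rule by 1 count. Their Kcnj10 was at 141 CPM (93.2 to 206, 27 counts), Lrmda at 503 CPM and Cacnb2 at 372 CPM. Kcnj10 was thus within the counting error of members with Tmem207, and Cacnb2 lay between those and comparison nuclei.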

How the results depend on the processing

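Of 119 named genes followed, 39 were past 2-fold against comparison nuclei. All 39 stayed so with a sum of at least 3 or 4, a tighter upper limit on total counts, removal of low-quality nuclei and likely doublets, or size factors, and 38 with free RNA subtracted. With Gpc5 as the only gate gene, 2264 nuclei with at least 2 counts against 2058 without Gpc5, 20 stayed so. With Tmem207 as the only gate gene, at least 1 count against nuclei without Tmem207, 25 did. They were 26 with Enox1 and Thsd4 at 0, 28 with a sum of at least 1, and 32 to 37 under the other planned settings. In splits added after the data were seen, 36 stayed in members with Tmem207 and 14 in members without it. The reported 34 higher and 56 lower genes became 58 and 111 after thinning. They became 423 and 784 from 1 CPM, and 14 and 17 from 50 CPM. They were 108 and 167 for the 888 members of cluster 2, the cluster with the most members, against all 1637 comparison nuclei. The lower count was 36 with a sum of at least 1 and 96 in members with Tmem207. Against TAL-β-type nuclei, 216 higher and 478 lower became 542 and 1557 from 1 CPM and 89 and 175 from 50 CPM, with 375 higher after thinning. Tmem207 as the only gate gene admitted 1808 nuclei at any Gpc5 count. They were set against the 3200 nuclei without Tmem207, which include the members without Tmem207. Against those 3200, ratios crossed 1 for Rtl4 (1.04) and Slit3 (0.989). In members without Tmem207, ratios to comparison nuclei crossed 1 for C1qtnf5 (0.978), Irx1 (1.03), Rbfox1 (0.747) and Tinag (0.938). The cause was not tested. Kcnk5 rested on 11 and 3 counts. It gave 0.575 after thinning, which left none in comparison nuclei, and 0.552 with free RNA subtracted. Groups with 0 counts on both sides, set to 3, also give 0.552, so no reversal is read from Kcnk5. No paired analysis was possible because each region had 1 library.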

Other observations

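Neighbours of Tmem207 on chromosome 16 differed in how they went with it. Cldn16 (GRCm39, 26281885 to 26301515, plus strand) lies 20891 bases away and was at 58.4 CPM in members with Tmem207, 10.8 CPM in members without it and 240 CPM in TAL-β-type nuclei. Its level differed between the deposited clusters of members, as given above. Il1rap (26400350 to 26548880, plus strand) lies 54831 bases away on the other side and was at 75.6, 10.1 and 62.8 CPM. P3h2, which encodes a collagen prolyl hydroxylase and lies 397765 bases away, was nearly level at 1953, 1901 and 1728 CPM. The kit's strand setting was not given in the sources used here.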
